A study of Homo sapiens with 12 samples.

Results

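The genes described here lie on the short arm of human chromosome 10 and were followed, in gene order, through 4 groups of A172 cells, a glioblastoma-derived cell line. The list held 53 genes, of which 51 had a probe set naming 1 gene and are called the members below. NSUN6 had no probe set in the annotation used, and the probe set of BMI1 named a second gene, so both were left out. The 51 members stand among 18417 genes tested, of which another 102 lay on the short arm and 526 on the long arm. Probe sets were chosen by their mean level on the 12 arrays, the highest being kept for each gene. This touched only AKR1C1, whose chosen probe set had a mean log2 level of 8.82 and the other 8.43. The members themselves were picked from the arm with earlier results of these arrays known, the differences of the clones from the controls included, so the members' differences between the clones and the controls describe them and do not test the list. The 102 other genes of the arm, which were not picked, are given beside them.

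The study asked what overexpression of hHSS1 does to the transcripts of glioma cells. hHSS1, now named EMC10 and formerly C19orf63, is a secreted protein and also a subunit of a membrane protein complex of the endoplasmic reticulum. The 12 Affymetrix Human Gene 1.0 ST arrays covered 3 wild-type cultures (not transfected), 3 mock cultures (stably transfected with the empty pcDNA3.1 vector), 3 cultures of clone 7 and 3 of clone 8. Both clones carried pcDNA3.1-hHSS1 with a 6-His tag at the end of the protein, and stable clones were kept under G-418. All cultures were harvested on day 4. Mock and each clone were 1 line each, so the p-values measure the spread between cultures of 1 line and say nothing of other clones. In whole cultures, fewer cells with a transcript and less of it per cell cannot be told apart.

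EMC10 checked the labels. Its log2 level was 10.43 to 11.13 in wild-type, 9.20 to 9.51 in mock, 11.57 to 12.30 in clone 7 and 11.75 to 12.18 in clone 8, so that all 6 clone arrays lay above all 6 control arrays. The glial marker GFAP was at 8.57 to 8.92, below the median of all genes (9.19 to 9.23) and near the neuronal marker RBFOX3 (8.58 to 8.93). The mesenchymal filament gene VIM, itself on the short arm, was at 13.37 to 13.74. The astrocyte markers S100B and AQP4 lay below the lower quartile of all genes on all 12 arrays. The glioma markers NES and SOX2 were at 8.74 to 10.16 and 8.19 to 8.97, and OLIG2 at 8.17 to 8.53. NES was lower than in mock by log2 -0.79 in clone 7 and log2 -0.67 in clone 8. Leukocyte CD68 (10.71 to 12.28) and fibroblast COL1A1 (9.50 to 10.52) lay above the median. CD3E, PECAM1, VWF, CDH1, DCN and PDGFRA lay below the lower quartile on all 12. Leukocyte PTPRC did so on 10 arrays and epithelial EPCAM on 7. Endothelial CDH5 (8.01 to 8.36) and neuronal SYP (7.89 to 8.16) did so on 0. Between the clones, however, 2 arrays went against their labels. Over 17738 genes off chromosome 10, differences from the mean of the controls in the array labelled clone 7 replicate 3 correlated most with clone 8 replicate 2 (r = 0.86), and with its own clone at only 0.22 to 0.26. The array labelled clone 8 replicate 3 correlated most with clone 7 replicate 1 (r = 0.79), and with its own clone at 0.16 to 0.42. Replicates 1 and 2 correlated at 0.88 in clone 7 and at 0.55 in clone 8. These correlations run over genes and share the same control mean, and are given as a description. Groups were kept as labelled, and the members' main counts, medians and differences in the clones are also given without the replicate 3 arrays of both, a choice made after the data were seen. Since those arrays were left out for their values, the smaller spread that remains makes such p-values too small.

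In glioblastoma, loss of all or part of chromosome 10 is among the most frequent changes. The members on the short arm have no common function. Among them are regulators of chromatin, splicing and mRNA decay factors, the AKR1C enzymes that reduce ketosteroids and other carbonyls, and genes of vesicle traffic and of phosphoinositide signalling. The arrays measured transcripts, not the number of copies of the arm.

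Promoter sequences are shown for 2 sets of neighbouring members, the AKR1C genes, related copies in a cluster, and a head-to-head pair. They were taken from RefSeq (GRCh38.p14), which listed a promoter for 49 of the 51 members (none for DNAJC1 and HSPA14), and run over the 250 bases before the gene's start, 5′ to 3′ on the gene's strand, with CG pairs in capitals. The AKR1C genes, which showed the widest split among the clone arrays, come first. AKR1C1 is at chr10:4963165-4963414 on the plus strand, AKR1C2 at chr10:5003858-5004107 on the minus strand and AKR1C3 at chr10:5048531-5048780 on the plus strand.
AKR1C1: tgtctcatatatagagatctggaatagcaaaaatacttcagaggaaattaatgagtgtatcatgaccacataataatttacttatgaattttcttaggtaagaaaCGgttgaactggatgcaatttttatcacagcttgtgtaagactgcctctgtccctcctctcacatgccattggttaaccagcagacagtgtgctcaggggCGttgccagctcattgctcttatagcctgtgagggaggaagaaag
AKR1C2: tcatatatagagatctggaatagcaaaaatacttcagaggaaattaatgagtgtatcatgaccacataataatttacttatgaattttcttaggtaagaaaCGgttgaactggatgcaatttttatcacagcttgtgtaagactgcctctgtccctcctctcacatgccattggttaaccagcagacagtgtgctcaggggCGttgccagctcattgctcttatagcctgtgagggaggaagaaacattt
AKR1C3: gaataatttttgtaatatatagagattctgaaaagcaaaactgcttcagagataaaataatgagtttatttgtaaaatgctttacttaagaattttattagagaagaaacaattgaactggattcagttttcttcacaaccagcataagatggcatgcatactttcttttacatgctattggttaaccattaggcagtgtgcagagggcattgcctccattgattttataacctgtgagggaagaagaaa

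In a global alignment the windows of AKR1C1 and AKR1C2 were identical at 245 bases, or 98.0% of the 250, and those of AKR1C1 and AKR1C3 at 185 bases (74.0%). Those of AKR1C2 and AKR1C3 were identical at 183 bases (73.2%). Only these windows were compared, and not the transcripts. Related copies can share probe signal, so the levels of AKR1C1, AKR1C2 and AKR1C3 may not be separate measurements. Their windows held 2, 2 and 0 CG pairs, against a median of 24 over the 49 members and of 11 over 27305 genes of the table. NUDT5 and CDC123 start head to head, and both were below all 6 controls on all 3 clone 8 arrays. NUDT5 is at chr10:12195892-12196141 on the minus strand and CDC123 at chr10:12195938-12196187 on the plus strand.
NUDT5: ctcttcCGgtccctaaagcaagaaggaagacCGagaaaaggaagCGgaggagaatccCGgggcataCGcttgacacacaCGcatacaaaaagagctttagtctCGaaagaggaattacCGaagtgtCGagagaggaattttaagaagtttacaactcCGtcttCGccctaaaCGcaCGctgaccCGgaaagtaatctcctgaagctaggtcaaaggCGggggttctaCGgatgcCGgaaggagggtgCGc
CDC123: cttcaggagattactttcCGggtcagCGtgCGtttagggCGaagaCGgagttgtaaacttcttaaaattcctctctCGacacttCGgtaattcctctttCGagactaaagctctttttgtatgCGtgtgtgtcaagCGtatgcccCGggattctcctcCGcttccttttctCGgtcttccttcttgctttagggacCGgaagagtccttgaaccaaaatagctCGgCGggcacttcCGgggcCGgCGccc

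The pair of starts lay 297 bases apart and the windows shared 204 bases. They held 18 and 19 CG pairs.

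In clone 8 the members were lower than in mock as a group. The median difference over the 51 was log2 -0.25, a 1.19-fold lower level, against log2 0.02 over all genes, and 41 of the 51 lay below zero. At an adjusted p under 0.05 (limma, Benjamini-Hochberg adjustment over all genes), 16 members were lower and 0 higher, beside 3.12% of all genes lower and 1.97% higher. At an unadjusted p under 0.05 the count was 26. The count of 16 moved with single arrays. It was 1, DCLRE1C, without mock replicate 1 or 2, 2 without mock replicate 3 and 3 without clone 8 replicate 1. It was 7 to 10 without any 1 of the wild-type arrays or clone 7 replicate 1 or 2. Calls over all genes, in either direction, fell as well. They went from 938 to 269, 222 and 272 without mock replicates 1 to 3, and to 494 without clone 8 replicate 1. None of the 16 members also reached 1.5-fold, the second limit used, which 0.76% of all genes did in either direction. No member reached both limits in any other comparison either, beside 0.673% of all genes in mock against wild-type, 0.7% in clone 7 against mock, 0% in clone 8 against clone 7, 1.34% in clone 7 against wild-type and 1.66% in clone 8 against wild-type. Of the 102 other short arm genes, 13 were lower and 0 higher, with a median of log2 -0.10. Against wild-type, 15 members were lower and 0 higher in clone 8, beside 5.13% and 3.69% of all genes, with a median of log2 -0.21. Of the other short arm genes, 22 were lower and 4 higher. The 15 became 8 without wild-type replicate 3, 9 without clone 8 replicate 1 and 23 without clone 8 replicate 3. Calls over all genes, in either direction, went from 1623 to 623, 973 and 1937. Both comparisons use the same clone 8 arrays.

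In clone 7 the shift was smaller and few single genes passed. The median difference from mock was log2 -0.08 and 0 members passed the adjusted limit in either direction (13 at an unadjusted p under 0.05), beside 1.32% of all genes lower and 1.82% higher. With array weights, 14 members were lower and 5 higher, beside 15.8% and 13.6% of all genes. Against wild-type, 2 members, NEBL and FRMD4A, were lower and 0 higher, beside 2.16% and 2.82% of all genes. With 1 array left out, 0 to 3 members were lower against mock, 3 of them without clone 8 replicate 2, and 1 to 5 against wild-type, 5 without clone 8 replicate 1 or 2. Without clone 8 replicate 2, calls over all genes against mock, in either direction, went from 579 to 889. Against wild-type they went from 917 to 1086 without clone 8 replicate 1 and to 1265 without replicate 2. With array weights, 14 members were lower and 5 higher against wild-type, beside 14.5% and 12.6% of all genes. Between the clones the median was log2 -0.14, clone 8 being the lower, and 0 members and 0% of all genes passed (9 members and 1328 of all genes at an unadjusted p under 0.05). Without the replicate 3 arrays of both clones, 33 members were lower and 1 higher in clone 8 than in mock, beside 8.73% and 4.93% of all genes, with a median of log2 -0.32. Of the 33, 16 were those lower on all arrays. In clone 7 against mock, 2 were then lower and 5 higher, beside 6.8% and 7.5%, with a median of log2 -0.05. Against wild-type, 3 were lower and 8 higher in clone 7, beside 7.54% and 7.89%, and 33 lower and 1 higher in clone 8, beside 10.6% and 6.76%. In mock against wild-type, 2 were lower and 2 higher, beside 3.66% and 3.41%. Between the clones, 25 members then passed as lower in clone 8 and 0 as higher, beside 10.7% and 6.52% of all genes, with a median of log2 -0.26.

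**Figure D1:**
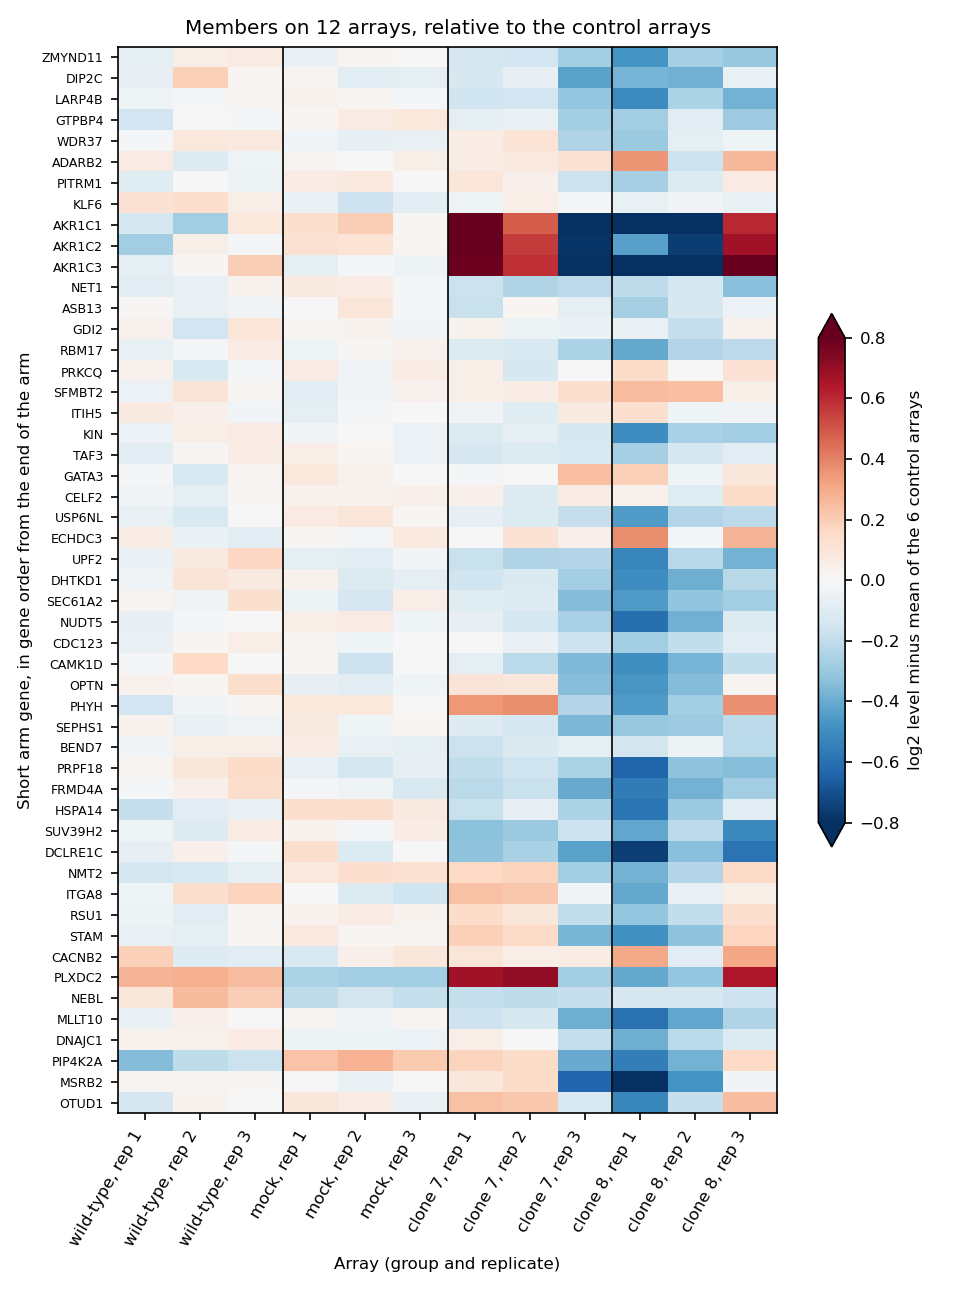
Each row is 1 of the 51 members in gene order from the end of the short arm, each column 1 array, and the colour the log2 level minus the mean of the 6 control arrays (blue lower, red higher, drawn to 0.8 either way). Most rows are blue in the arrays labelled clone 8 replicates 1 and 2 and clone 7 replicate 3, where 40, 40 and 37 members lay below all 6 controls, and the AKR1C rows and PLXDC2 are red in the other 3 clone arrays.

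The arrays give the shift more plainly than the group means. The members' median difference from the mean of the controls was log2 -0.04 to 0.02 over the 6 control arrays. It was log2 -0.03, -0.05 and -0.23 in clone 7 replicates 1 to 3, and log2 -0.41, -0.23 and -0.05 in clone 8 replicates 1 to 3. Thus the array labelled clone 7 replicate 3 lay with clone 8 replicate 2, and the array labelled clone 8 replicate 3 with clone 7 replicate 2. In clone 7, 17, 21 and 37 members lay below all 6 controls on replicates 1 to 3, beside 23.8%, 24.6% and 18.6% of all genes. In clone 8, 40, 40 and 21 did, beside 31.4%, 24.5% and 24.4%. At 35 of the 51 members the array labelled clone 7 replicate 3 was nearer to the mean of clone 8 replicates 1 and 2 than to that of its own clone. At 34 of the 51, clone 8 replicate 3 was nearer to clone 7. Off chromosome 10, 63% and 55.6% of genes did so.

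**Figure D2:**
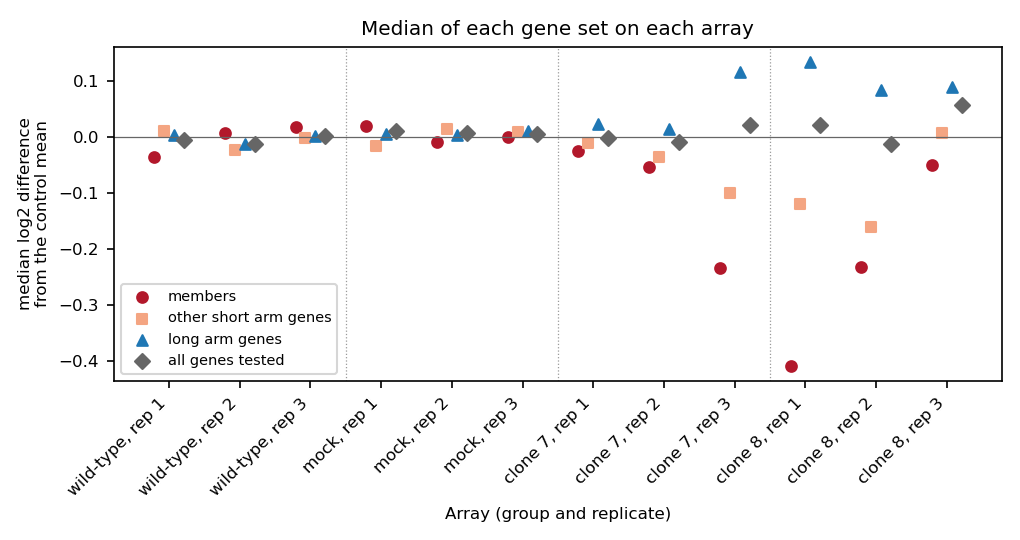
For each of the 12 arrays, points give the median log2 difference from the mean of the 6 control arrays over the members, the other short arm genes, the long arm genes and all genes tested. The members' points lie at -0.23, -0.41 and -0.23 in clone 7 replicate 3 and clone 8 replicates 1 and 2, and between -0.05 and 0.02 in the other 9 arrays, while the long arm lies above 0 in all 6 clone arrays.

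The shift was carried mostly by members with a mean log2 level of 9 and above. Of 27 members with a mean log2 level of 10 and above, 25 were below zero in clone 8 against mock, with a median of log2 -0.27, whereas all 6612 genes of that level had a median of log2 -0.06. Of 9 members from 9 to 10, all 9 were below zero and the median was log2 -0.25, with log2 0.00 over all 3295 genes of that level. Of 15 members below a level of 9, 7 were below zero and the median was log2 0.04, with log2 0.07 over all 8510 genes of that level. DCLRE1C, the called member with the largest fall, was 1 of these 15, at a mean level of 8.74. Among the other short arm genes the medians were log2 -0.29 over 33 genes at 10 and above and log2 0.00 over 56 below 9. On long arm genes of 10 and above the median was log2 0.08. PRKCQ, CELF2 and CACNB2 lay below the lower quartile of all genes on all 12 arrays, where a fall may not be detectable. Clone 8 replicate 1 had a narrower range of levels than the other arrays, with an interquartile range of 3.13 against 3.25 to 3.36. On that array all genes at 10 and above had a median of log2 -0.10 and those below 9 of log2 0.16, so that strong genes as a whole were low on it, by less than the members were. Without the replicate 3 arrays, the medians in clone 8 were log2 -0.34 over the members at 10 and above and log2 0.04 over those below 9. The levels 9 and 10 were set after the data were seen.

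**Figure D3:**
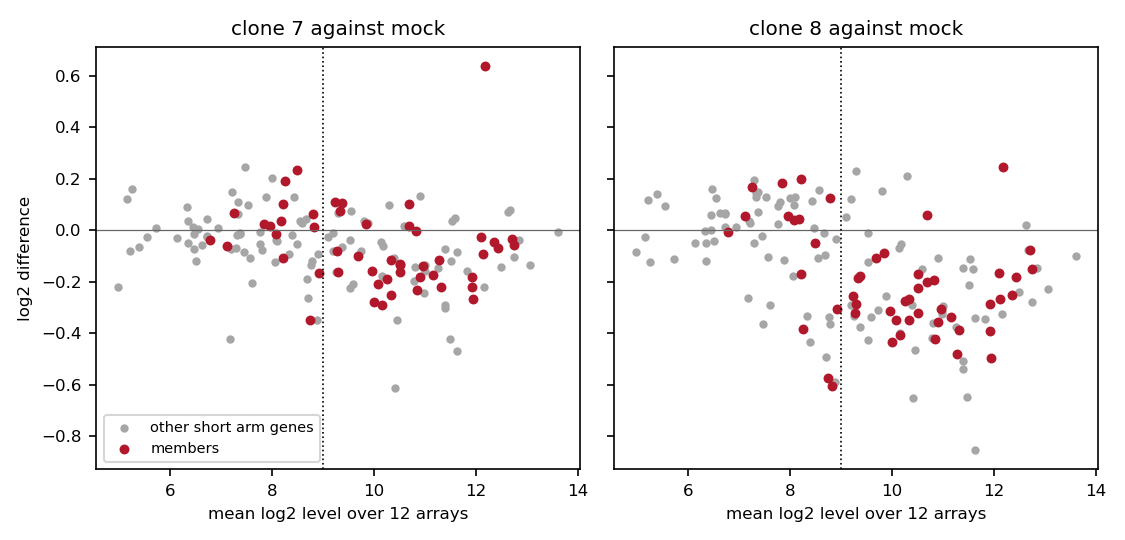
The log2 difference from mock (vertical) is plotted against the mean log2 level over 12 arrays (horizontal) for the 51 members (red) and the 102 other short arm genes (grey), in clone 7 on the left and clone 8 on the right, with a dotted line at a level of 9. In clone 8 most points right of the line lie below 0, and those left of it lie on both sides.

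The members had medians below zero in each of 3 stretches of the arm, while the other genes lying among them had one near zero. In clone 8 against mock the medians were log2 -0.22 over the first 17 members (ZMYND11 to SFMBT2), log2 -0.20 over the middle 17 (ITIH5 to BEND7) and log2 -0.27 over the last 17 (PRPF18 to OTUD1). The 53 other short arm genes that lie among the members had a median of log2 -0.01, with 28 of the 53 below zero, and only 16 of them had a mean level of 9 and above (median log2 -0.15). Counting members alone, and passing over the other genes between them, the longest run below mock was 19, from UPF2 to STAM. Some of the other genes within that stretch lay above mock, and the members were picked with these differences known. The run is therefore not an unbroken segment of the arm. In clone 7 the longest was 8, from SEPHS1 to NMT2, and in mock against wild-type it was 3. Beyond the last member, 49 short arm genes from KIAA1217 to the centromere had a median of log2 -0.25 in clone 8, and the first 25 genes of the long arm one of log2 0.04. With the replicate 3 arrays left out, the medians in clone 8 were log2 -0.24, -0.31 and -0.39 over the 3 stretches of members, log2 -0.04 over the genes among them, log2 -0.28 beyond the last member and log2 0.02 over the first 25 long arm genes, and the longest run was again 19. Over the whole long arm the medians against mock were log2 0.09 in clone 8 and log2 0.04 in clone 7. These positions come from gene order in RefSeq, since the build behind the arrays' annotation is not named in the sources used here.

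**Figure D4:**
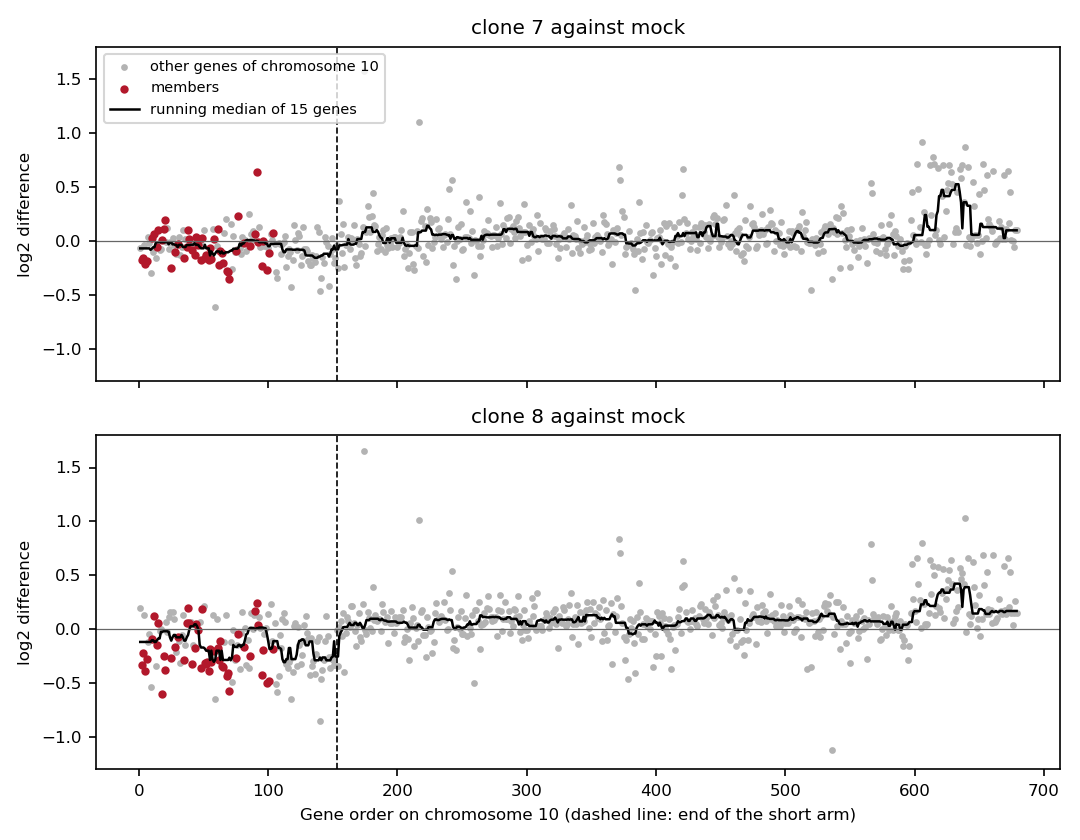
Each point is 1 gene of chromosome 10 in gene order, with its log2 difference from mock in clone 7 (top) and clone 8 (bottom), members in red, a running median of 15 genes as a black line and the end of the short arm as a dashed line. In clone 8 most members lie below 0, the other genes among them lie on both sides (median -0.01), the last 49 genes of the short arm have a median of -0.25, and the first 25 genes past the dashed line have one of 0.04.

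Among the members for chromatin and transcription, 4 of 9 were lower in clone 8 than in mock and 0 higher, with a median of log2 -0.17, beside 31.4% of all members and 3.12% of all genes. The counts were 4 lower and 1 higher without the replicate 3 arrays, beside 8.73% and 4.93% of all genes. The 4 were MLLT10, a partner of the histone methyltransferase DOT1L, SUV39H2, which methylates lysine 9 of histone H3, ZMYND11, a reader of methylated histone H3.3, and KIN, a nuclear zinc finger protein. MLLT10 was at log2 10.96, 11.05 and 11.01 in wild-type, 11.03, 10.98 and 11.02 in mock, 10.85, 10.88 and 10.62 in clone 7, and 10.41, 10.59 and 10.77 in clone 8. All 6 clone arrays lay below all 6 controls. In clone 8 it was lower than in mock by log2 -0.42 ± 0.09 (SE), or 1.34-fold (limma adjusted p = 0.0225), while clone 7 was at log2 -0.23 ± 0.09 (limma adjusted p = 0.232). SUV39H2 was at 10.29, 10.22 and 10.39 in wild-type, 10.36, 10.31 and 10.39 in mock, 10.00, 10.03 and 10.16 in clone 7, and 9.91, 10.12 and 9.81 in clone 8. Here too the clones did not overlap the controls, and the lowest array was the one labelled clone 8 replicate 3. The difference of clone 8 from mock was log2 -0.41 ± 0.08, or 1.32-fold (limma adjusted p = 0.017). Both calls were lost without any 1 mock array or clone 8 replicate 1, with limma adjusted p of 0.0703 to 0.0919 for MLLT10 and 0.0539 to 0.0742 for SUV39H2. On the arrays without replicate 3 of the clones, clone 8 was at log2 -0.51 ± 0.07 for MLLT10 and log2 -0.34 ± 0.07 for SUV39H2, and clone 7 at log2 -0.15 ± 0.07 and log2 -0.34 ± 0.07.

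The transcription factor genes of the group that are known from tumours or lineages did not pass in the clones. KLF6, a zinc finger factor often altered in tumours, was at 10.81, 10.83 and 10.75 in wild-type, 10.64, 10.53 and 10.61 in mock, 10.66, 10.75 and 10.68 in clone 7, and 10.64, 10.67 and 10.64 in clone 8. Mock lay below wild-type on every array, by log2 -0.20 ± 0.06 (limma adjusted p = 0.0963), and the mean of each clone lay between them. GATA3, which directs T cell and luminal breast lineages, was at 8.13, 8.02 and 8.16 in wild-type, 8.22, 8.18 and 8.14 in mock, 8.13, 8.14 and 8.38 in clone 7, and 8.34, 8.11 and 8.23 in clone 8. Its groups overlapped. The polycomb gene SFMBT2 was the 1 member called higher than mock in clone 8 once the replicate 3 arrays were left out, at log2 0.26 ± 0.06.

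In the group for RNA and protein synthesis, folding and translocation, 6 of 12 were lower in clone 8 than in mock and 0 higher. Of all genes, 3.12% were lower and 1.97% higher. Of the 12 members, 11 lay below zero, with a median of log2 -0.29. The counts were 9 lower and 0 higher without the replicate 3 arrays, beside 8.73% and 4.93% of all genes. The role groups were not tested against each other. The 6 were HSPA14, a ribosome-associated Hsp70-like chaperone, LARP4B, which binds mRNA, PRPF18 and RBM17, splicing factors, UPF2, of nonsense-mediated mRNA decay, and SEPHS1, a relative of selenophosphate synthetase. HSPA14 was at 9.94, 10.03 and 10.06 in wild-type, 10.26, 10.25 and 10.19 in mock, 9.94, 10.06 and 9.87 in clone 7, and 9.54, 9.82 and 10.04 in clone 8. Mock was the high group here, so that clone 8 was lower than mock (log2 -0.43 ± 0.10, limma adjusted p = 0.0351) and overlapped wild-type (log2 -0.21 ± 0.10, limma adjusted p = 0.208). The call against mock was lost without any 1 control array, clone 7 replicate 1 or clone 8 replicate 1 (limma adjusted p of 0.0516 to 0.132). PRPF18 was at 10.51, 10.58 and 10.63 in wild-type, 10.43, 10.34 and 10.42 in mock, 10.29, 10.33 and 10.23 in clone 7, and 9.85, 10.16 and 10.15 in clone 8. The groups followed one another downwards, and clone 8 was 1.44-fold below wild-type (log2 -0.52 ± 0.08, limma adjusted p = 0.00264) and 1.27-fold below mock (limma adjusted p = 0.0322). UPF2 was at 10.06, 10.18 and 10.28 in wild-type, 10.03, 10.02 and 10.09 in mock, 9.93, 9.87 and 9.88 in clone 7, and 9.59, 9.89 and 9.73 in clone 8. All clone arrays lay below the controls, and clone 8 was lower than wild-type by log2 -0.44 ± 0.08 (limma adjusted p = 0.00586). Without the replicate 3 arrays, clone 8 was below mock by log2 -0.55 ± 0.08 for HSPA14, log2 -0.39 ± 0.09 for PRPF18 and log2 -0.31 ± 0.09 for UPF2. The translocon gene SEC61A2 and DNAJC1, a chaperone cofactor of the endoplasmic reticulum, passed as lower in clone 8 against wild-type and not against mock.

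Of the members for metabolism, redox and mitochondria, 2 of 10 were lower in clone 8 than in mock, beside 3.12% of all genes. The 2 were NUDT5, which hydrolyses ADP-sugars, and DHTKD1, a mitochondrial enzyme of lysine breakdown. The count rose to 9 without the replicate 3 arrays, beside 8.73% of all genes. NUDT5 was at 11.99, 12.04 and 12.06 in wild-type, 12.11, 12.12 and 12.02 in mock, 11.99, 11.92 and 11.80 in clone 7, and 11.45, 11.68 and 11.95 in clone 8. It was lower than mock by log2 -0.39 ± 0.10 (limma adjusted p = 0.0491), a call lost without any 1 control array, clone 7 replicate 1 or 2 or clone 8 replicate 1 (limma adjusted p up to 0.173) and after quantile normalisation (limma adjusted p = 0.0613). Its head-to-head neighbour CDC123, a factor of translation initiation, was at 12.46 to 12.52 in mock and 12.22, 12.31 and 12.41 in clone 8, and did not pass. DHTKD1 was at 10.62, 10.75 and 10.72 in wild-type, 10.68, 10.54 and 10.58 in mock, 10.48, 10.53 and 10.37 in clone 7, and 10.15, 10.26 and 10.42 in clone 8. The clones lay below the controls throughout, and clone 8 was 1.34-fold below wild-type (limma adjusted p = 0.00698) and 1.25-fold below mock (limma adjusted p = 0.0373). With the replicate 3 arrays left out, clone 8 was below mock by log2 -0.52 ± 0.07 for NUDT5 and log2 -0.39 ± 0.07 for DHTKD1.

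The AKR1C genes moved in opposite directions within each clone, and AKR1C1 and AKR1C3 reached the largest departures from the controls of any member on 1 array. AKR1C1 was at 8.77, 8.64 and 9.0 in wild-type, 9.05, 9.11 and 8.93 in mock, 9.76, 9.40 and 7.97 in clone 7, and 7.99, 7.76 and 9.52 in clone 8. AKR1C2 was at 8.95, 9.28 and 9.22 in wild-type, 9.35, 9.34 and 9.25 in mock, 10.04, 9.79 and 8.45 in clone 7, and 8.80, 8.47 and 9.90 in clone 8. AKR1C3 was at 8.26, 8.34 and 8.53 in wild-type, 8.26, 8.32 and 8.29 in mock, 9.12, 8.92 and 7.41 in clone 7, and 7.18, 7.40 and 9.15 in clone 8. In each of the 3 genes, clone 7 replicates 1 and 2 and the array labelled clone 8 replicate 3 lay above all controls, and the other 3 clone arrays below all of them. With the labels as given, the difference between clone 8 and clone 7 was therefore within its error, at log2 -0.62 ± 0.45 for AKR1C1 (limma adjusted p = 0.646), log2 -0.37 ± 0.38 for AKR1C2 and log2 -0.57 ± 0.48 for AKR1C3. On the arrays without replicate 3 of the clones, clone 8 lay 3.25-fold below clone 7 for AKR1C1 (log2 -1.70 ± 0.14), 2.43-fold for AKR1C2 and 3.32-fold for AKR1C3.

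Other members also set replicate 3 of each clone apart from its other arrays, though not always above and below all controls. They are named after their values were seen. PLXDC2, which codes for a membrane protein with a plexin-like domain, was at 12.36, 12.37 and 12.33 in wild-type, 11.83, 11.81 and 11.82 in mock, 12.76, 12.80 and 11.82 in clone 7, and 11.68, 11.78 and 12.74 in clone 8. MSRB2, a mitochondrial methionine sulfoxide reductase, was at 11.46, 11.46 and 11.45 in wild-type, 11.44, 11.39 and 11.44 in mock, 11.53, 11.59 and 10.81 in clone 7, and 10.45, 10.96 and 11.42 in clone 8. The control arrays of MSRB2 lay close together. Its clone arrays lay on both sides of them, except clone 8 replicate 3, which lay among them. PIP4K2A, a phosphoinositide kinase, was at 11.67, 11.81 and 11.84 in wild-type, 12.24, 12.29 and 12.22 in mock, 12.19, 12.16 and 11.61 in clone 7, and 11.46, 11.63 and 12.17 in clone 8. Without the replicate 3 arrays, 7 members were called and differed between the clones by 1.5-fold or more, all lower in clone 8. Of all 18417 genes, 617 did so in either direction. The 7 members were the 3 AKR1C genes, which may not be separate measurements, PLXDC2 (2.07-fold), MSRB2 (1.81-fold), PHYH, a peroxisomal enzyme of phytanic acid breakdown (1.65-fold), and PIP4K2A (1.54-fold). STAM, of endosomal sorting, was just short of that at 1.49-fold.

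Of the 20 members for signalling, trafficking, ubiquitin and adhesion, 4 were lower in clone 8 than in mock and 0 higher. Of all genes, 3.12% were lower and 1.97% higher. The median over the 20 was log2 -0.18. Leaving out the replicate 3 arrays made the count of lower members 11, beside 8.73% of all genes. The 4 were DCLRE1C, USP6NL, FRMD4A and NET1. USP6NL turns off Rab5 and NET1 activates RhoA, whereas DCLRE1C codes for Artemis, a nuclease of DNA end joining, and has no signalling role. DCLRE1C had the largest fall of the called members, from 9.11, 8.86 and 8.97 in mock and 8.90, 9.0 and 8.95 in wild-type to 8.64, 8.70 and 8.54 in clone 7 and 8.21, 8.63 and 8.37 in clone 8. Each clone array lay below each control. The difference of clone 8 was log2 -0.57 ± 0.10 from mock, or 1.49-fold (limma adjusted p = 0.00797), and log2 -0.55 ± 0.10 from wild-type (limma adjusted p = 0.0058). That of clone 7 from mock was log2 -0.35 ± 0.10 (limma adjusted p = 0.0862). FRMD4A, a scaffold protein of cell polarity, was at 10.25, 10.29 and 10.39 in wild-type, 10.24, 10.22 and 10.13 in mock, 10.04, 10.07 and 9.85 in clone 7, and 9.70, 9.88 and 9.98 in clone 8. It was the only member but NEBL called lower in both clones against wild-type, by log2 -0.32 ± 0.08 in clone 7 (limma adjusted p = 0.046) and log2 -0.46 ± 0.08 in clone 8 (limma adjusted p = 0.0058). The call in clone 7 was lost without any 1 array of wild-type, mock or clone 7 (limma adjusted p of 0.0679 to 0.186). With the replicate 3 arrays left out, clone 8 was below mock by log2 -0.56 ± 0.11 for DCLRE1C and log2 -0.41 ± 0.07 for FRMD4A.

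**Figure D5:**
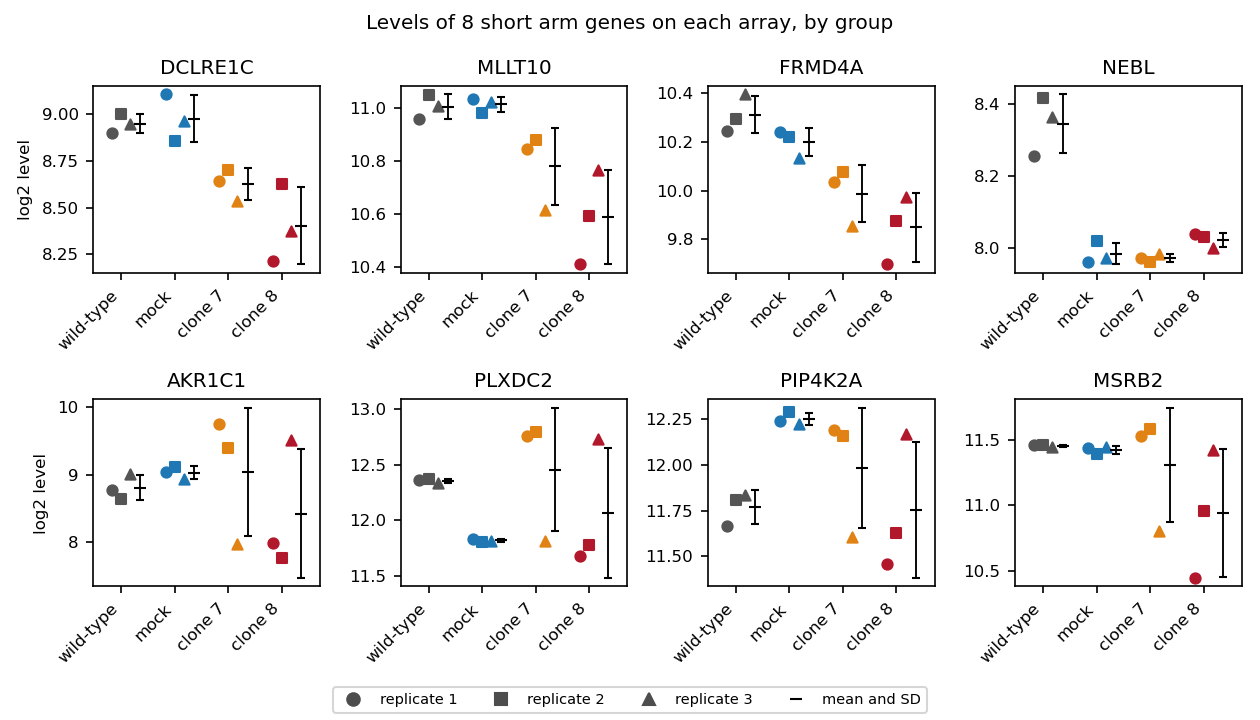
Log2 levels of 8 members on each array by group, with the replicate shown by the marker, and the mean and SD (n = 3) drawn beside the points. Each panel has its own range of levels. DCLRE1C, MLLT10 and FRMD4A lie lower on all 6 clone arrays, NEBL is high in wild-type alone, and AKR1C1, PLXDC2, PIP4K2A and MSRB2 set replicate 3 of each clone apart from its other arrays.

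The clones and controls did not overlap in 15 members in clone 7 and 19 in clone 8, all of them below the 6 control arrays, where 6.45% and 7.11% of all genes did so. None lay above. On replicates 1 and 2 alone, 15 lay below and 11 above in clone 7, beside 17.2% and 14.5% of all genes, and 37 below and 1 above in clone 8, beside 14.3% and 9.77%. Of the 102 other short arm genes, 14 and 30 lay below and 0 above on all 3 arrays. Named in both clones were ZMYND11, LARP4B, NET1, RBM17, KIN, UPF2, DHTKD1, SEPHS1, PRPF18, FRMD4A, SUV39H2, DCLRE1C and MLLT10. In clone 7 TAF3, a TFIID subunit, and BEND7 joined them. In clone 8 it was USP6NL, SEC61A2, NUDT5, CDC123, the kinase CAMK1D and DNAJC1.

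Between mock and wild-type the members as a group did not shift, at a median of log2 0.02 over both the members and all genes. NEBL, which codes for the actin-binding protein nebulette, was the 1 member lower in mock, and 0 were higher, beside 1.24% and 1% of all genes. It was at 8.26, 8.42 and 8.36 in wild-type, 7.96, 8.02 and 7.97 in mock, 7.97, 7.96 and 7.98 in clone 7, and 8.04, 8.03 and 8.00 in clone 8. All 9 transfected cultures lay below all 3 wild-type ones, and the clones did not pass against mock. Mock was lower by log2 -0.36 ± 0.06, or 1.28-fold (limma adjusted p = 0.00493), clone 7 by log2 -0.37 ± 0.06 (limma adjusted p = 0.00236) and clone 8 by log2 -0.32 ± 0.06 (limma adjusted p = 0.0048), 3 comparisons that share the wild-type arrays. The spread shared by all 12 arrays rests largely on the clones, so the controls were also compared alone, a fit added after the data were seen. The median SE of a member was then 0.06 in place of 0.08, and 3 members were lower and 3 higher, beside 5.37% and 5.22% of all genes. PLXDC2 was 1.45-fold lower in mock (log2 -0.54 ± 0.05, limma adjusted p = 2.94e-05), whereas on all 12 arrays its adjusted p was 0.483. PIP4K2A was 1.39-fold higher (limma adjusted p = 0.000298). NEBL and KLF6 were also lower, and NMT2, an N-myristoyltransferase, and HSPA14 also higher. Not overlapping between the groups were 9 members below and 7 above, beside 13.3% and 15.6% of all genes.

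Some genes of the arm that were not members were also called. In clone 8 against mock, MCM10, MASTL and PRTFDC1 fell further than any called member. MCM10, a factor of replication initiation, was at 10.47, 10.67 and 10.53 in wild-type, 10.77 to 10.80 in mock, 10.14, 10.19 and 10.17 in clone 7, and 10.01, 10.37 and 10.00 in clone 8. It was lower than mock by log2 -0.61 ± 0.09 in clone 7 (limma adjusted p = 0.00368) and log2 -0.65 ± 0.09 in clone 8 (limma adjusted p = 0.00252), and did not follow the split of the clone arrays. MASTL, a mitotic kinase, was at 11.72 to 11.85 in mock and 10.81, 11.20 and 11.38 in clone 8, 1.57-fold lower (limma adjusted p = 0.0177). PRTFDC1 was lower in clone 8 than in mock by log2 -0.59 ± 0.15 (limma adjusted p = 0.0407) and 1.71-fold lower than in wild-type (limma adjusted p = 0.00762). In clone 7 against mock the polarity gene PARD3 (log2 -0.35 ± 0.08) and ANKRD30A (log2 -0.42 ± 0.10) were also lower. Against wild-type, ZEB1, a repressor of epithelial genes, was lower by log2 -0.45 ± 0.10 in clone 7 and log2 -0.58 ± 0.10 in clone 8. CCDC7 was lower by log2 -0.61 ± 0.13 in clone 8. Mock also lay below wild-type without passing, by log2 -0.29 ± 0.10 for ZEB1 and log2 -0.50 ± 0.13 for CCDC7. Neither gene passed against mock, where clone 8 was at log2 -0.29 ± 0.10 for ZEB1 and log2 -0.12 ± 0.13 for CCDC7. JCAD, an endothelial junction gene, was the 1 other short arm gene called between the controls in the fit of all 12 arrays. It was higher in mock by log2 0.39 ± 0.08 (limma adjusted p = 0.0238). In the fit of the 6 control arrays alone, 3 of the 102 other short arm genes were lower in mock and 6 higher. All genes gave 5.37% and 5.22%. VIM did not pass in any comparison, but at 13.37, 13.40 and 13.37 it was lowest in clone 7 replicate 3 and clone 8 replicates 1 and 2, and at 13.59 or more on the other 9 arrays.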

How the data were processed

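Transcript levels were measured on Affymetrix Human Gene 1.0 ST arrays of 12 A172 cultures, 3 each of wild-type, mock, clone 7 and clone 8, grouped by their titles. The methods call them triplicate plates. The deposited log2 values, 33297 probe sets an array with 0 missing, had been summarised and normalised by the authors. Partek is named in the submitters' processing notes and dChip as well in the methods, and the method of normalisation and the genome build are not given in the sources used here.

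Probe sets were named through the platform annotation, updated by Entrez ID to RefSeq (19429 matched). It gave 1 symbol to 19460 probe sets, several to 1754 and none to 12083. Per gene the single-symbol probe set with the highest mean was kept, which left 18417 genes. A linear model with 4 group means was fitted to all 12 arrays in limma 3.58.1 (R 4.3.3), with 6 contrasts, empirical Bayes variances and Benjamini-Hochberg adjustment. A gene was called at an adjusted p under 0.05. The script was tested on simulated data. The number of arrays limits the precision. Values on every array were given for the 5 called members with the largest difference in each contrast and for the AKR1C genes, KLF6 and GATA3. Of other short arm genes, the top 3 called in each contrast, MCM10 and VIM were named. The members, lists and tests were chosen with earlier results of these data known. Alternatives were quantile normalisation, a filter on dim probe sets, the mean of a gene's probe sets, a replicate block, array weights, an intensity trend and leaving out each array. Promoters were aligned with Biopython 1.88.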

Additional observations from a re-analysis of the deposited data

How the results depend on the processing

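The members' median difference moved by less than the spread of array medians between replicates under all alternatives, while counts of calls moved. That spread was log2 0.15 for clone 8 against clone 7 and log2 0.08 for clone 7 against mock and against wild-type. It was about as large as these medians, so this limit cannot show them to be stable. Without the replicate 3 arrays of both clones, the median of clone 7 against wild-type went from log2 -0.08 to log2 -0.02. That of clone 8 against clone 7 went from log2 -0.14 to log2 -0.26. Members called lower in clone 7 against wild-type numbered 4 after quantile normalisation and 1 with a replicate block, and 1 was lower in clone 7 against mock once dim probe sets were left out. With array weights, which gave clone 7 replicate 3 and clone 8 the lowest weights, 4 were lower and 3 higher in mock against wild-type, beside 6.62% and 6.4% of all genes, and 14 lower and 5 higher in clone 7 against mock (15.8% and 13.6%) and against wild-type alike (14.5% and 12.6%). With the replicate block, 6 were lower in clone 8 against mock, and the calls of HSPA14, MLLT10 and NUDT5 there and of FRMD4A in clone 7 against wild-type were lost (limma adjusted p = 0.0562, 0.0516, 0.0923 and 0.0912). Replicate numbers are not shown to pair the cultures, since 18 same-number pairs of deviations correlated at -0.83 to 0.45 and 4 of them above 0.1. Leaving out each array in turn gave 1 to 18 members lower in clone 8 against mock, 8 to 23 in clone 8 against wild-type, 0 to 3 in clone 7 against mock and 1 to 5 in clone 7 against wild-type. The lowest clone 8 count came without mock replicate 1 or 2 (1 each). Members called higher ranged over 0 to 3 in clone 8 against mock and against wild-type, 3 of them without clone 8 replicate 2 in each, and over 0 to 1 in clone 7 against mock. Over all 18417 genes, calls in either direction ranged over 222 to 3353 in clone 8 against mock and 623 to 5248 against wild-type. The highest of each came without clone 8 replicate 2. In clone 7 they ranged over 182 to 977 against mock and 412 to 1388 against wild-type.

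Without the replicate 3 arrays of both clones, an alternative chosen after seeing the data, 33 were lower and 1 higher in clone 8 against mock and against wild-type alike, 25 lower in clone 8 against clone 7, 2 lower and 5 higher in clone 7 against mock, 8 higher in clone 7 against wild-type, and 2 lower and 2 higher in mock against wild-type. On the 6 control arrays alone, 3 were lower and 3 higher. The causes were not tested. Under every alternative run, the calls held for DCLRE1C in clone 8 against mock and wild-type, for NEBL in mock and clone 7 against wild-type, and for PRPF18, FRMD4A, UPF2 and DHTKD1 in clone 8 against wild-type, and of the 13 calls on named members 0 reversed. Of 248 such checks 39 lost the call, among them FRMD4A in clone 7 against wild-type in 10 of 19, HSPA14 in 9 and NUDT5 in 11. Levels near background limit what can be seen in PRKCQ, CELF2 and CACNB2.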
